A study of Ovis aries with 16 samples.

Results

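BCAP31, CFLAR, MAP3K1, F2R and EPHA7 are 5 genes that the study named when it described apoptosis in the testis of underfed sheep. They were taken by identifier from the 25197 Ensembl genes of the files (BCAP31, ENSOARG00000007184; CFLAR, ENSOARG00000016852; MAP3K1, ENSOARG00000007392; F2R, ENSOARG00000016937; EPHA7, ENSOARG00000012207), and all 5 were among the 11148 genes with a CPM (reads on a gene scaled to a common library total) above 5 in at least 8 of 16 libraries. The study picked them on these same sheep, from its differentially expressed genes and from groups of co-expressed genes related to apoptotic cells, so their direction and their relation to the trait are not independent evidence.

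The libraries came from RNA of testis tissue of 16 adult Merino male sheep, 1 library a sheep. For each sheep the study had mixed pieces of the top, middle and bottom of the right testis. The 8 well-fed sheep (high diet, H1 to H8) were fed to gain 10% of their body mass in 65 days, and the 8 underfed sheep (low diet, L1 to L8) to lose 10% in the same time. Sheep kept at a constant mass were not analysed here, so a difference between the diets cannot be assigned to the gain or to the loss. Library totals were 9552149 to 18230076 reads in well-fed and 7646547 to 14690953 in underfed sheep. H8 and H5 stood apart in their TMM factor, which corrects CPM for a few genes taking many reads, with 0.739 and 0.859 against 0.961 to 1.13 in the other 14.

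Germ cells die by apoptosis throughout normal spermatogenesis, and the supporting Sertoli cells clear them. Apoptosis can be started at the cell surface, where death receptors recruit and activate caspase-8, or from within, through the endoplasmic reticulum and the mitochondria. EPHA7 and F2R are receptors on the cell surface: EPHA7 is a receptor tyrosine kinase that binds ephrin-A ligands on neighbouring cells, and F2R is the G protein-coupled receptor that thrombin activates by cutting it. CFLAR (c-FLIP) resembles caspase-8 without its protease activity and limits caspase-8 activation at death receptors. MAP3K1 is a kinase at the head of the JNK stress kinase cascade and is itself a caspase substrate. BCAP31 is a membrane protein of the endoplasmic reticulum that escorts other membrane proteins, and its caspase-8 fragment can pass a death signal to mitochondria.

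All 5 genes were more highly expressed in the underfed sheep, with ratios of mean CPM from 1.84 for BCAP31 to 2.24 for EPHA7. Each had an adjusted p-value under 0.1 (limma with Benjamini-Hochberg adjustment over 11148 genes) together with a ratio above 1.5, as did 10.8% of all genes tested in this direction. Because the study chose the genes from this contrast, nothing is read from that count. The median log2 difference of all genes tested was 0.01, and on library totals, without TMM factors, it was 0.17. The differences of the 5 genes rose with it, from between 0.67 and 0.91 with TMM factors to between 0.84 and 1.08 without. All log2 differences are underfed minus well-fed on log2(TMM-scaled CPM + 1), on which the change of a gene with few reads comes out too small. Testis tissue is a mixture of cells, in which fewer cells of a type and less RNA per cell cannot be told apart. With the sheep's number as a block all 5 passed again, as did 6.21% of genes tested in the direction of higher in underfed.

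Of the receptors, EPHA7 was measured at 1.46 CPM in the lowest, 3.07 in the median and 5.87 in the highest well-fed sheep. In underfed sheep the lowest was 6.62, the median 8.16 and the highest 9.31 CPM. The diets did not overlap in CPM, as for 0.762% of genes tested in this direction, and the underfed sheep lay close together (8.16 ± 0.992 CPM, SD, n = 8) compared with the well-fed ones (3.64 ± 1.70, SD, n = 8). The margin was narrow, since the highest well-fed sheep, H8, rested on 107 reads (5.87 CPM, exact binomial 95% interval 4.81 to 7.09) and the lowest underfed sheep, L8, on 73 reads (6.62 CPM, 5.19 to 8.32). These intervals cover counting error only. After division by the TMM factor H8 stood at 7.94 CPM, above the lowest underfed value of 6.59, and the diets overlapped. The log2 difference was 0.91 ± 0.24 (SE), with an adjusted p of 0.037 from limma. EPHA7 had the fewest reads of the 5 genes, 17 in H1.

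F2R was measured at 7.52, 13.1 and 25.4 CPM in the lowest, median and highest well-fed sheep. The corresponding values in underfed sheep were 14.4, 30.4 and 57.6 CPM. The diets overlapped, with 4 of 8 underfed sheep above every well-fed one, and L7 had the lowest underfed value. The log2 difference was 0.83 ± 0.27 (SE), with an adjusted p of 0.059 from limma. This was the least stable of the 5 differences: the adjusted p passed 0.1 in 6 of the 16 fits that left out 1 sheep, namely those without H1 (0.11), H5 (0.10), H6 (0.11), H8 (0.12), L4 (0.12) or L6 (0.12).

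CFLAR, the inhibitor among the 5, was measured at 4.98 CPM in the lowest, 8.99 in the median and 12.4 in the highest well-fed sheep. In underfed sheep it was 9.65, 17.3 and 31.0 CPM. In CPM L1 lay among the well-fed sheep and the other 7 underfed sheep above all of them. After TMM scaling 6 of 8 underfed sheep lay above every well-fed one. The log2 difference was 0.80 ± 0.21 (SE), with an adjusted p of 0.034 from limma.

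MAP3K1, the kinase, was measured at 30.2, 46.3 and 64.4 CPM in the lowest, median and highest well-fed sheep. In underfed sheep it was 69.7, 92.8 and 147 CPM. The diets did not overlap, in CPM or after TMM scaling, where 0.466% of genes tested were also higher in every underfed sheep. The log2 difference was 0.91 ± 0.19 (SE), with an adjusted p of 0.018 from limma, the smallest adjusted p of the 5 genes.

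BCAP31, of the endoplasmic reticulum, was measured at 67.4 CPM in the lowest, 110 in the median and 157 in the highest well-fed sheep. In underfed sheep it was 117, 199 and 313 CPM. Here 5 of 8 underfed sheep exceeded every well-fed one, and L7 was the highest of all sheep. The log2 difference was 0.67 ± 0.19 (SE), with an adjusted p of 0.041 from limma.

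**Figure D1:**
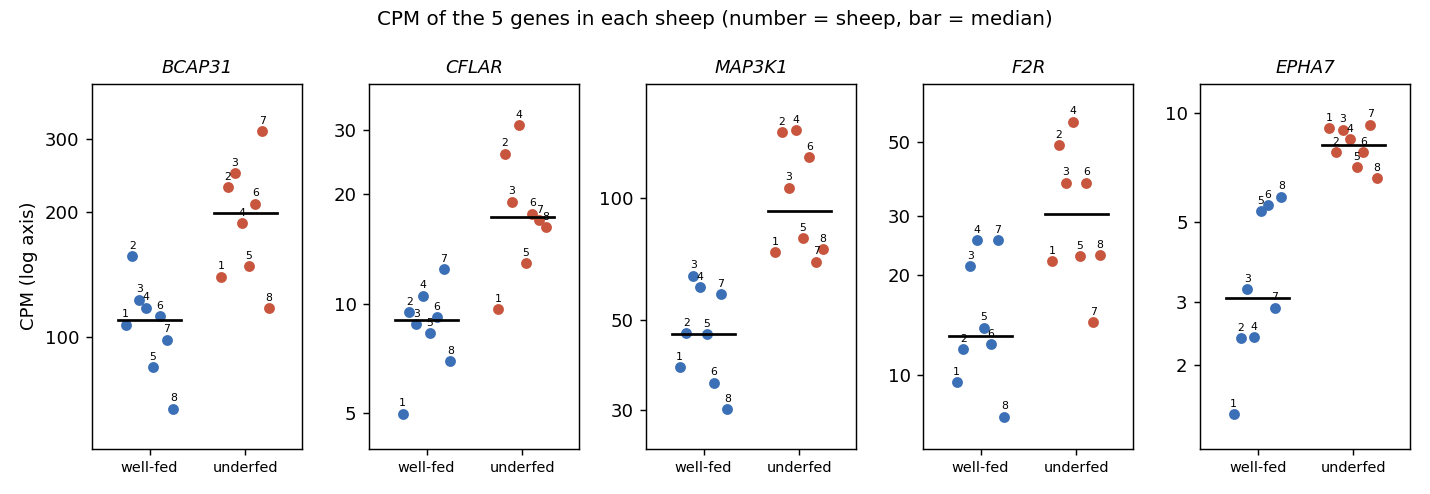
CPM (log axis) of BCAP31, CFLAR, MAP3K1, F2R and EPHA7 in each of 8 well-fed (blue) and 8 underfed (red) sheep, with the sheep's number above its point and a bar at the median of the diet. The diets are apart for MAP3K1 (highest well-fed 64.4, lowest underfed 69.7 CPM) and EPHA7 (5.87 and 6.62 CPM) and overlap for the other genes, and underfed sheep 7 is the highest in BCAP31 and the lowest underfed sheep in F2R.

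The diet difference was fitted again with testis weight or apoptotic germ cells per tubule as a covariate, since these traits of the sheep moved with the diet (6 of 8 underfed sheep had a lighter testis than every well-fed sheep). With testis weight held, the log2 difference was 1.00 for EPHA7 (standard error 0.34), 0.65 for MAP3K1 (0.25), 0.63 for CFLAR (0.29), 0.39 for F2R (0.35) and 0.38 for BCAP31 (0.25). The first 3 had an unadjusted p under 0.05. Whether the change of the estimate differed between the genes was not tested. No gene of 11148 had an adjusted p under 0.1 in that fit (limma), and adjusted p was 0.85 to 0.86 for the 5. In all, 544 genes had an unadjusted p under 0.05, and 3.33% of genes tested had one in the direction of higher in underfed. With apoptotic germ cells held, the differences were 0.57 for BCAP31, 0.61 for CFLAR, 0.71 for MAP3K1, 0.60 for F2R and 0.95 for EPHA7. Unadjusted p was under 0.05 for the genes other than F2R (0.084), as for 10.2% of genes in this direction, and adjusted p was 0.17 to 0.29 from limma. Diet, testis weight and germ cell loss move together in these sheep, and their parts in the differences cannot be told apart.

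**Figure D2:**
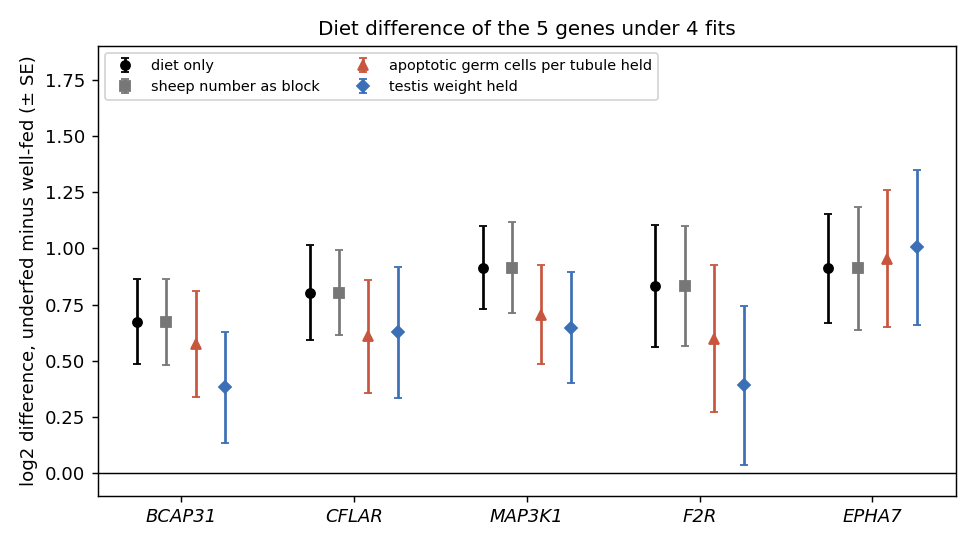
Log2 difference between underfed and well-fed sheep (points, with bars of 1 standard error) for the 5 genes, from limma with diet alone, with the sheep's number as a block, with apoptotic germ cells per tubule held and with testis weight held. The estimate for EPHA7 stays between 0.91 and 1.00, and that for BCAP31 goes from 0.67 to 0.38 with testis weight held.

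Over the 16 sheep all 10 pairs of the 5 genes were positively correlated, with a median Pearson's r of 0.62 (0.34 to 0.92). The median over all pairs of genes tested was -0.01, and 16.3% of these pairs reached 0.62. With the mean of each diet removed the median of the 10 pairs was 0.16, a value that 40.6% of all pairs reached, and 6 of 10 were positive. With diet means removed MAP3K1, F2R and CFLAR stayed close to each other, and the other 7 pairs had r between -0.18 and 0.24. The study had put MAP3K1, F2R and CFLAR in the same group of co-expressed genes, and BCAP31 and EPHA7 each in another. Those groups were built from these same libraries. Correlations between the 5 genes therefore restate that grouping in part and are descriptions only.

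MAP3K1 and F2R were the closest pair in every view. Their r was 0.92 over 16 sheep (Spearman's rho 0.86, and r 0.87 when the 2 sheep most extreme in MAP3K1 were left out), 0.92 with diet means removed, 0.89 in well-fed and 0.95 in underfed sheep. Among all pairs of genes tested, 0.866% were as close over 16 sheep and 0.864% with diet means removed. CFLAR followed this pair, at r 0.86 with MAP3K1 and 0.81 with F2R over 16 sheep and 0.67 with either when diet means were removed. In underfed sheep the 2 values were 0.77 and 0.69, and in well-fed sheep 0.49 and 0.64.

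BCAP31 had r of 0.63 with CFLAR, 0.63 with MAP3K1 and 0.41 with F2R over 16 sheep, and 0.24, 0.13 and -0.05 with diet means removed. L7, which was high in BCAP31 and low in F2R, moved the last pair most: without it the r over the other sheep was 0.69. EPHA7 had r of 0.34 to 0.61 with the other 4 genes over 16 sheep. These values rested in part on a few sheep: with the 2 sheep most extreme in the other gene left out, r was 0.08 with F2R, 0.30 with BCAP31, 0.43 with CFLAR and 0.48 with MAP3K1, and without H1 alone r with F2R was 0.16. With diet means removed its r was between -0.18 and 0.18, and with BCAP31 it was -0.48 in well-fed and 0.54 in underfed sheep.

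**Figure D3:**
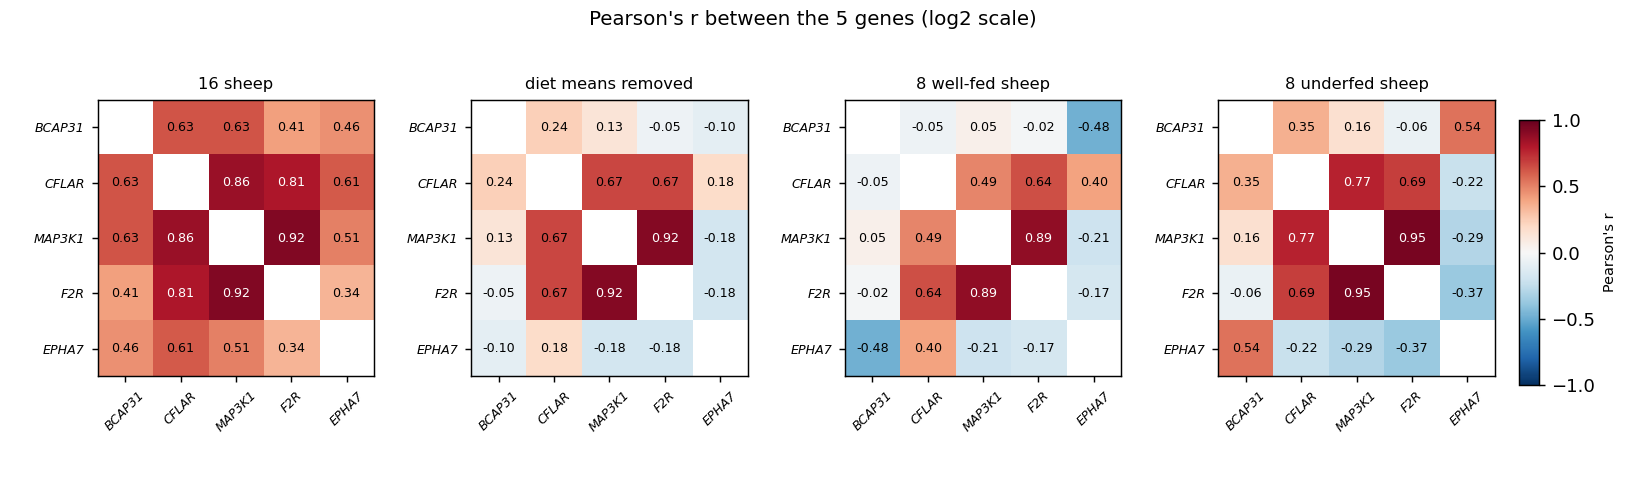
Pearson's r (colour, and printed in each cell) between the log2 values of each pair of the 5 genes over 16 sheep, over 16 sheep with diet means removed, and within the 8 sheep of each diet. MAP3K1 and F2R keep an r of 0.89 to 0.95 in all 4 panels, while the row of EPHA7 goes from 0.34 to 0.61 over all sheep to between -0.18 and 0.18 with diet means removed.

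In a ratio of 2 genes within a library its total cancels apart from the 1 CPM added to each value, which pulls ratios of genes with few reads towards 1, so the ratios test for unequal change. Gene lengths were not used here, and the level of a ratio is therefore not a comparison of transcript numbers. Each ratio was taken as (CPM + 1) over (CPM + 1), and none of the 10 differed between the diets (exact permutation test, two-sided, smallest p = 0.33, n = 8 per diet). The ratio of MAP3K1 to F2R had the smallest SD (0.27 on the log2 scale) and went from 2.24 in H7 to 4.58 in L7, with a median of 3.06 in well-fed and 3.21 in underfed sheep. Its log2 difference between diets was 0.09, and shifts from -0.21 to 0.39 were kept by the exact permutation test at 95%. The ratio of BCAP31 to MAP3K1 had the lowest p (0.33): its median was 2.06 in well-fed and 1.75 in underfed sheep, a log2 difference of -0.24 with an interval of -0.72 to 0.27. It ranged up to 4.44 in L7, and without L7 the difference was -0.41 (exact permutation test, p = 0.035, before any correction for 10 ratios). The ratio of F2R to EPHA7 had the largest SD and went from 1.24 in H8 to 7.77 in H4, both well-fed, and its interval for the log2 difference between diets, -0.93 to 0.81, allows changes of either sign.

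Apoptotic germ cells per tubule had been counted by the study in the same 16 sheep, and 6 of 8 underfed sheep had more than every well-fed sheep. All 5 genes had a positive r with this trait: 0.68 for MAP3K1 (permutation test, p = 0.00080), 0.63 for CFLAR (p = 0.0093), 0.56 for F2R (p = 0.016), 0.53 for BCAP31 (p = 0.038) and 0.37 for EPHA7 (p = 0.15), n = 16. Spearman's rho was 0.70 for MAP3K1 (permutation test, p = 0.0033), 0.61 for CFLAR (p = 0.014), 0.40 for F2R (p = 0.12), 0.70 for BCAP31 (p = 0.0036) and 0.52 for EPHA7 (p = 0.040). These permutations exchanged sheep between the diets, so the p-values take in the diet difference. The study had also chosen the genes partly by their relation to this trait. When L2 and L5, whose trait values lay farthest from the median, were left out, r was 0.76 for MAP3K1, 0.74 for CFLAR, 0.55 for F2R, 0.70 for BCAP31 and 0.53 for EPHA7. In the fit across 11148 genes none passed an adjusted p of 0.1 (limma; 733 genes had an unadjusted p under 0.05). Unadjusted p was under 0.05 for 4 of the 5 genes with a positive slope, as for 5.26% of genes tested, and adjusted p was 0.50 for MAP3K1, 0.65 for CFLAR and 0.72 to 0.76 for the others.

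Within a diet no relation passed the 0.05 level. In underfed sheep r was 0.62 for MAP3K1 (exact permutation test, p = 0.059, n = 8), 0.52 for F2R (p = 0.18), 0.48 for CFLAR (p = 0.25), 0.21 for BCAP31 (p = 0.61) and -0.43 for EPHA7 (p = 0.31). In well-fed sheep it was -0.36 for MAP3K1 (exact permutation test, p = 0.38, n = 8), -0.65 for F2R (p = 0.088), -0.14 for CFLAR (p = 0.72), 0.31 for BCAP31 (p = 0.45) and 0.22 for EPHA7 (p = 0.59). With diet in the model the slopes were 0.11 to 0.25 log2 units per apoptotic cell per tubule for BCAP31, CFLAR, MAP3K1 and F2R and -0.05 for EPHA7, with unadjusted p from 0.12 for MAP3K1 to 0.81 for EPHA7 (limma), while 0.628% of genes tested had a positive slope at an unadjusted p under 0.05. The slope was more positive in underfed than in well-fed sheep at an unadjusted p under 0.05 for 1 of the 5 genes, F2R (adjusted p = 0.30 from limma), as for 10.3% of genes tested. Leaving out 1 sheep took the slope with diet held to 0.03 (without L8), 0.07 (without L1) or 0.17 and 0.18 (without L2 or L7) for BCAP31, to 0.12 for CFLAR (without L1) and to 0.14 for F2R (without L2). With diet means removed r was 0.45 for MAP3K1, 0.37 for CFLAR, 0.31 for F2R, 0.21 for BCAP31 and -0.07 for EPHA7, lower for each gene than over the sheep of both diets.

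**Figure D4:**
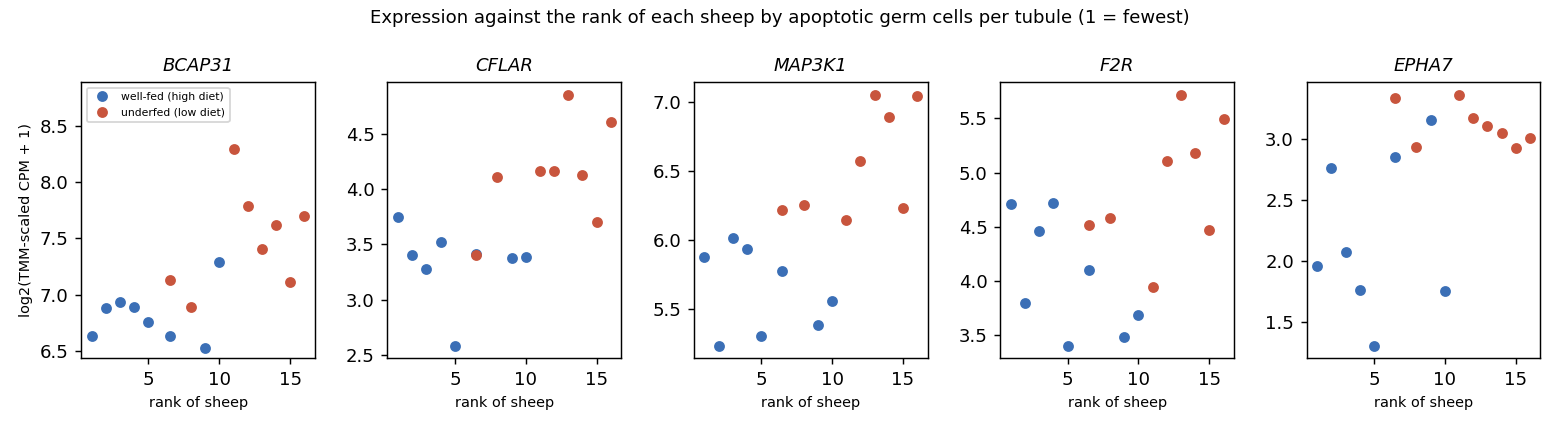
Log2(TMM-scaled CPM + 1) of the 5 genes (vertical) against the rank of each sheep by its apoptotic germ cells per tubule (horizontal, 1 has the fewest), in well-fed (blue) and underfed (red) sheep. MAP3K1 has r on the trait itself of 0.62 among underfed and -0.36 among well-fed sheep, neither past the 0.05 level, and EPHA7 has r of -0.43 among underfed sheep.

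Markers of cell types had been listed, but the files give no symbols, and only 1763 of 25197 identifiers received one from the study's tables of differentially expressed genes and related lists. The matched markers are therefore mostly genes that differ with diet. All 5 matched of 10 Sertoli cell markers (WT1, GATA4, CLDN11, FSHR and INHA) were expressed more in underfed sheep, where their summed level was 198 to 532 CPM against 113 to 164 CPM in well-fed sheep. The same was found for 3 of 6 peritubular and smooth muscle markers (MYH11, DES and MYL9), with 125 to 534 against 47.8 to 264 CPM, and for PTPRC, the only one of 8 leukocyte markers matched, with 19.3 to 59.4 against 10.9 to 33.6 CPM. The 6 of 7 matched spermatocyte markers (SYCP1, SYCP2, SYCP3, SPO11, HORMAD1 and MEIOB) were all expressed less in underfed sheep, with a summed level of 178 to 1110 CPM against 584 to 2206 CPM. SYCP1, SYCP2 and SYCP3 passed in 11, 8 and 9 of the 16 fits that left out 1 sheep. Of 3 spermatid markers matched of 9, SPACA1 and SPAG16 were expressed less and CAPZA3 missed the threshold (adjusted p = 0.13 from limma), with 404 to 1491 against 793 to 2186 CPM, and STAR, 1 of 7 Leydig cell markers, was expressed less, at 6.71 to 27.8 against 16.02 to 73.0 CPM. No matched marker was at 0 in any library. No marker of spermatogonia (0 of 5) or endothelial cells (0 of 6) was matched.

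The 5 genes did not all move with the same markers. The sums were of CPM, so the most abundant marker of each weighed most. In underfed sheep MYH11 had a mean of 292 CPM, against 17.6 for DES and 13.6 for MYL9. Among the spermatid markers CAPZA3 had 710 CPM, against 159 for SPACA1 and 52.9 for SPAG16. SYCP2 (447 CPM) was the largest of the spermatocyte markers and CLDN11 (148 CPM) of the Sertoli cell markers. BCAP31 moved with the summed Sertoli cell markers, with r of 0.92 over 16 sheep (rho 0.86), 0.84 with diet means removed, 0.93 in underfed and 0.41 in well-fed sheep, and against the spermatocyte markers, with -0.78 over 16 sheep and -0.64 with diet means removed. L7, highest in BCAP31, also had the highest Sertoli sum (532 CPM) and the lowest spermatocyte sum (178 CPM). F2R and MAP3K1 did not move with the Sertoli markers once diet means were removed (-0.01 and 0.15). They moved with the peritubular markers (0.83 and 0.83 over 16 sheep, 0.70 and 0.64 with diet means removed) and against the spermatid markers (-0.82 and -0.77, and -0.74 and -0.68). CFLAR went the same way with the peritubular markers (0.79, and 0.58 with diet means removed) and the spermatid markers (-0.61 and -0.39). CFLAR moved with PTPRC (0.86, and 0.73 with diet means removed), as did F2R (0.86 and 0.76) and MAP3K1 (0.85 and 0.72). The study had put PTPRC in the same group of co-expressed genes as CFLAR, F2R and MAP3K1. That group was built from these libraries, so these values are not independent of it. EPHA7 moved the other way from F2R and MAP3K1 within the diets: its r was -0.50 with the peritubular and 0.52 with the spermatid markers when diet means were removed. Library totals were lower in underfed sheep (mean 11014810 against 13980417 reads), so depth and diet cannot be told apart over all sheep. Over 16 sheep r with the library total was -0.60 for BCAP31, -0.55 for MAP3K1, -0.50 for F2R, -0.42 for CFLAR and -0.04 for EPHA7. In well-fed sheep r with the library total was 0.78 for EPHA7, -0.66 for BCAP31, 0.41 for CFLAR, -0.33 for MAP3K1 and -0.20 for F2R. In underfed sheep the values were -0.30, -0.28, -0.53, -0.26 and -0.37 in the same order. The part of depth in these relations was not tested, nor was the part of cell makeup in the diet difference of the 5 genes.

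**Figure D5:**
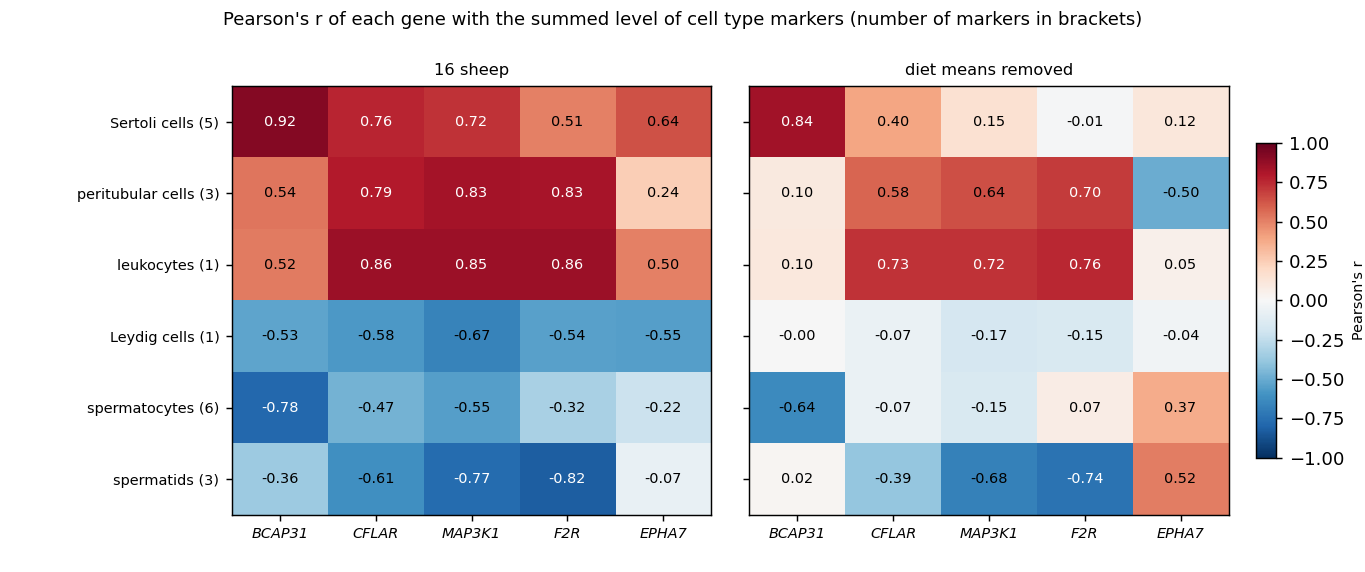
Pearson's r (colour, and printed in each cell) of each of the 5 genes with the log2 summed TMM-scaled CPM of the matched markers of 6 cell types, over 16 sheep (left) and with diet means removed (right). With diet means removed BCAP31 keeps an r of 0.84 with the Sertoli cell markers, while F2R has 0.70 with the peritubular and -0.74 with the spermatid markers. Abundant markers weigh most in a sum, MYH11 in the peritubular and CAPZA3 in the spermatid one.

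The genes whose pattern was most like that of each member were taken from all 11148 tested by r over 16 sheep. For BCAP31 these were GAMT (0.95), an enzyme of creatine synthesis, CUEDC2 (0.95) and GSTT1 (0.95), a glutathione transferase. For CFLAR they were LRCH1 (0.95), PLCB4 (0.93), a phospholipase C that G proteins activate, and EPB41 (0.92), a protein of the membrane skeleton. For MAP3K1 they were TXLNG (0.97), OCRL (0.97), a phosphoinositide phosphatase, and TIMP3 (0.97), an inhibitor of matrix metalloproteinases. For F2R they were SSFA2 (0.95), PLCB4 (0.95) and 1 gene without a symbol (0.94). Over all sheep MAP3K1 stood in place 8 for F2R, but F2R in place 41 for MAP3K1. For CFLAR, MAP3K1 stood in place 53 and F2R in place 168. With diet means removed F2R was in place 2 for MAP3K1 (0.92) and MAP3K1 in place 3 for F2R.

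EPHA7 had few genes like it. Over 16 sheep 4 genes had an r above 0.8 with it and none above 0.9, against 469 above 0.8 for MAP3K1, 460 for F2R, 206 for CFLAR and 159 for BCAP31. EPHA7 had only 17 to 115 reads a library, and counting error lowers r for such a gene. The part of counting error in this contrast was not tested. The 3 closest to EPHA7 had no symbol, with r of 0.89 for ENSOARG00000023239 and 0.83 for the next 2. With diet means removed the closest was SLC44A5 (0.90), which had a log2 difference of -0.58 (adjusted p = 0.091 from limma) and did not reach the ratio of 1.5, while CFLAR kept LRCH1 (0.89), EPB41 (0.87) and PLCB4 (0.85), MAP3K1 kept TXLNG (0.92) and OCRL (0.91), and F2R kept SSFA2 (0.93). The 3 closest to BCAP31 in that view had no symbol (0.91 to 0.94).

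Of the genes that act around the 5 members, few could be looked up: 0 of 18 in death receptor signalling, 4 of 27 of the mitochondrial arm and caspases, 3 of 20 of the JNK cascade, 6 of 23 in thrombin receptor signalling, 1 of 21 ephrins and Eph receptors and 5 of 22 in quality control of the endoplasmic reticulum. Those found carry a symbol because the study tabulated them, mostly as differential, so no count over the lists is read. CASP8 and FADD, the partners of CFLAR, could not be looked up. In the cascade of MAP3K1, TAB3 (80.7 ± 26.8 CPM underfed, 39.2 ± 12.2 well-fed, SD, n = 8), TAB1 (10.9 ± 4.47 and 4.68 ± 3.37), adaptors of another kinase at its head, and the kinase MAP3K12 (22.7 ± 7.76 and 11.95 ± 6.48) were expressed more in underfed sheep (log2 differences 0.85, 1.08 and 0.85, adjusted p = 0.022, 0.048 and 0.062 from limma). MAP3K12 passed in 10 and TAB1 in 14 of the 16 fits that left out 1 sheep. Downstream of F2R, the G protein subunits GNAQ (25.5 ± 9.20 and 11.1 ± 3.79 CPM) and GNA14 (29.3 ± 7.29 and 14.6 ± 3.98) and the phospholipases PLCB3 (40.2 ± 15.9 and 18.0 ± 11.3) and PLCB4 (23.8 ± 8.80 and 12.3 ± 3.11) were expressed more, with log2 differences of 0.70 for PLCB4 to 1.12 for PLCB3 and adjusted p of 0.020 to 0.042 from limma.

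EFNA1, an ephrin-A ligand of EPHA receptors, had 11.7 ± 3.92 CPM on the low diet against 6.25 ± 1.74 CPM on the high diet (SD, n = 8), with a log2 difference of 0.62 (adjusted p = 0.063 from limma), and it passed in 8 of the 16 fits that left out 1 sheep. BCAP29, the closest relative of BCAP31, went the other way: it had 361 ± 166 CPM on the low diet against 672 ± 303 CPM on the high diet (SD, n = 8), with a log2 difference of -1.13 (adjusted p = 0.056 from limma), and it passed in 11 of those 16 fits. Of genes tested, 5.42% passed in this direction. The translocon subunit SEC61A1 (75.1 ± 30.4 and 34.0 ± 24.3 CPM) and the stress kinase EIF2AK3 (17.6 ± 3.696 and 9.70 ± 3.24 CPM) of the same organelle were expressed more in underfed sheep, with log2 differences of 1.17 and 0.67 and adjusted p of 0.047 and 0.038 from limma. Another translocon subunit, SEC61G (38.4 ± 17.6 and 57.3 ± 18.2 CPM), and TRAM1 (294 ± 112 and 423 ± 78.0 CPM), which assists the translocon, had lower levels in underfed sheep. Their log2 differences were -0.79 and -0.78 (adjusted p = 0.080 and 0.057 from limma), they missed the ratio of 1.5, and they too were named after their values were seen. Of the mitochondrial proteins released in apoptosis or gating their release, AIFM1 (60.6 ± 15.9 and 30.4 ± 6.61 CPM) and VDAC1 (30.9 to 81.8 and 22.2 to 31.2 CPM) were expressed more, with log2 differences of 0.79 and 0.71 and adjusted p of 0.020 and 0.030 from limma. The other 2 matched genes of that list, named after their values were seen, did not pass: DIABLO, which is also released from mitochondria, had 114 ± 25.7 CPM against 151 ± 34.4 CPM (log2 difference -0.58, adjusted p = 0.077 from limma, ratio under 1.5), and the caspase CASP2 had 9.34 ± 4.15 against 4.403 ± 2.60 CPM (0.81, adjusted p = 0.12 from limma). The tyrosine phosphatase PTPRC had a log2 difference of 0.80 (adjusted p = 0.046 from limma).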

How the data were processed

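Per the labels, testis RNA was made into libraries with a stranded mRNA kit. The authors aligned reads to Oar_v3.1 (TopHat2 2.0.10, CASAVA 1.8), counted them on Ensembl genes with HTSeq and deposited CPM, each count divided by the library total. The strand setting of the counting is not given in the sources used here. Every value was a whole number of reads (tolerance 0.01), and these recovered reads served the count tests. Traits came from the study's trait table. Replicates are separate sheep, and no 2 libraries held the same values.

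CPM above 5 in at least 8 libraries was required. CPM was divided by TMM factors (edgeR 4.0.16), 1 was added, and log2 values were tested with limma 3.58.1 (R 4.3.3). Single values were tested by exact permutation and correlations with 100000 resamples (scipy 1.17.1). In simulated data with 11191 genes, 55 of 96 diet changes of log2 1 and 91 of 91 of log2 2 were found, none in the wrong direction. Of the genes called, at least 7.53% were false. Some of the genes called were counted neither as found nor as false, so the share may be higher. The same spread was used for every simulated gene, and no such rate is given here for the trait fits.

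The members and lists were chosen with earlier results of these data known. Named genes were the members, the 3 genes most like each (over 16 sheep and with diet means removed), of each list those past the criteria (up to 4, smallest p), and BCAP29, EFNA1 and PTPRC. Markers were named as lists. Alternatives covered normalization, filter, pseudocount (0.1), test (edgeR, DESeq2 1.42.0, limma-voom), thresholds, covariates, the replicate block and leaving out each sheep.

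No sequence or coordinate is given, because the annotation at hand (ARS-UI_Ramb_v3.0) is of another build.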

Additional observations from a re-analysis of the deposited data

Results flagged for a closer look

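Of 30 sets of 8 values (5 genes and 10 ratios in each diet), 1 held a value far from the others by Dixon's criterion, which chance gives in about 1 of 20 sets. It was the ratio of BCAP31 to F2R in L7, at a log2 value of 4.35 (20.4-fold), with a gap to the next underfed sheep of 0.628 of the whole range. L7 had the highest BCAP31 level of all sheep (313 CPM) and the lowest F2R level of the underfed sheep (14.4 CPM). Its summed Sertoli cell markers (532 CPM) were the highest and its spermatocyte markers (178 CPM) the lowest of the 16 sheep, and the part of these in the ratio was not tested. Without L7 the log2 difference of this ratio between the diets went from -0.15 to -0.40 (exact permutation test, p = 0.14).

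The slope of F2R on apoptotic germ cells per tubule differed between the diets before correction. It was 0.32 log2 units per apoptotic cell per tubule in underfed and -2.11 in well-fed sheep, a difference of 2.43 (limma, unadjusted p under 0.05), with r of 0.52 in underfed and -0.65 in well-fed sheep. The trait values of well-fed sheep lay closer together than those of underfed sheep. The steep slope in well-fed sheep, and the size of the difference, depend on that narrow range. The adjusted p over all genes was 0.30, so the difference failed the correction. In the same fit 10.3% of genes tested had a slope more positive in underfed sheep at an unadjusted p under 0.05 and none passed an adjusted p of 0.1.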

How the results depend on the processing

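All 5 genes passed the diet criteria on library totals, without a filter, with a pseudocount of 0.1, with edgeR, DESeq2 and limma-voom on recovered reads, with the ratio of TMM-scaled means, and with the replicate block (adjusted p = 0.049 for MAP3K1 to 0.093 for F2R from limma). At an adjusted p under 0.05, 4 passed, since F2R had 0.059. With testis weight as a covariate 0 of 5 passed, and with apoptotic germ cells as a covariate 0 of 5. Leaving out each sheep left 4 to 5 genes, the loss being F2R each time. The numbers of the sheep are not known to pair them: deviations of same-numbered sheep had a mean correlation of -0.15 against 0.02 for others, and 1 of 8 sheep fitted its own number best. The block lowered the count over all genes from 1808 to 1067, and an adjusted p under 0.05 to 837. Leaving out a sheep gave 674 (without L6) to 2684 (without L1). The share expressed more was 66.6%, against 77.5% on library totals and 53.4% with the ratio of TMM-scaled means. The slopes on apoptotic germ cells passed for 0 of 5 genes in every setting, with or without diet. Over all genes, 25 (trait) and 13 (trait with diet) passed without a filter and 0 with it. The slope of EPHA7 with diet held went from -0.05 to 0.00445 with the log2 of the trait. The median r of the 10 pairs was 0.52 to 0.67 leaving out each sheep, 0.69 on library totals, 0.63 with a pseudocount of 0.1 and 0.60 as Spearman's rho. Of the 10 ratios, 0 passed the 0.05 level, also in the exact sign-flip test with the replicate block, and 0 to 1 leaving out each sheep (1 without L7). Direction was kept in all 27 alternatives by the 53 other named genes, markers and neighbouring genes, but calls were lost. Of the 46 called, 17 lost the call when some sheep was left out, 9 with the replicate block (SYCP1, SYCP2, SYCP3, EFNA1, MAP3K12, CLDN11, MYL9, LRCH1 and ARRB1), 4 without a filter, 2 on library totals, 1 with edgeR, 12 at an adjusted p under 0.05 and all 46 with either covariate. Alternatives of the gene lists were not run, since too few genes had a symbol. EPHA7, with 17 to 115 reads a library, is the gene most limited by depth.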

Other observations

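In the order of genes of the RefSeq annotation of sheep, SETD9, a gene of the SET domain family, lies beside MAP3K1, and it was chosen here after its values were seen. It was measured at 2.27 to 9.37 CPM (median 5.77) in underfed and at 8.76 to 96.4 CPM (median 34.0) in well-fed sheep. The log2 difference was -2.40 (standard error 0.49, adjusted p = 0.018 from limma), opposite to that of MAP3K1, and r between these neighbours was -0.66 over 16 sheep and -0.11 with diet means removed. SLC6A8, the creatine transporter, lies beside BCAP31 and was also chosen after its values were seen. It had 32.9 ± 12.8 CPM on the low diet against 13.2 ± 7.57 CPM on the high diet (SD, n = 8), a log2 difference of 1.21 (adjusted p = 0.036 from limma), with r to BCAP31 of 0.63 over 16 sheep and 0.29 with diet means removed. Genes on opposite strands that overlap could share reads, and whether these do was not tested.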
